A study of Mus musculus with 24 samples.

Results

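Zbtb16, Fam107a, Map7d2, Hif3a, Sult1a1 and Dlk2 were the 6 genes described here, out of 27088 genes with a read in any library and 15221 tested. They were picked from these data for a low level in vehicle-treated wild-type mouse embryonic fibroblasts and a large rise with dexamethasone (Dex, a synthetic glucocorticoid), so their rise in those libraries is a description and was not tested. All 6 passed the filter on low counts. Zbtb16, Hif3a and Sult1a1 did so through the wild-type Dex groups, in which they are high. Fam107a, Map7d2 and Dlk2 also held enough reads for it in libraries without Dex. The label of near-silent genes held for 4 of them, which averaged below 0.5 counts per 1000000 reads (CPM) in vehicle. It did not hold for Dlk2, at 2.05 CPM, and Map7d2 lay just above that level at 0.52 CPM.

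The fibroblasts came from male C57BL/6 embryos of day 13.5 without head and inner organs, and were cultured for 7 days. Cells were wild type (GR wt/wt) or GR Zn/Zn, homozygous for a glucocorticoid receptor (GR, gene Nr3c1) known for a disrupted zinc finger of its DNA-binding domain and written C437G in the submitters' naming. The 4 treatments were ethanol vehicle for 16 h, 1 uM Dex for 16 h, vehicle with 100 ng/ul bacterial lipopolysaccharide (LPS) for 6 h, and Dex with LPS. Each of the 8 groups had 3 libraries of polyA RNA, and all groups received the ethanol solvent. The mutation is part of the embryos' own genotype, and the labels do not say how many embryos gave the cells or that the 3 libraries of a group were separate cultures. The spread behind each p-value may therefore be technical, and a genotype effect and a difference between embryos or cultures cannot be told apart.

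The glucocorticoid receptor is a steroid-activated transcription factor that moves to the nucleus on binding hormone. As a dimer it binds palindromic DNA elements whose arms resemble AGAACA around a spacer of any bases, and it can also act through other DNA-bound factors. Fibroblasts are classical glucocorticoid target cells, and LPS switches on their inflammatory genes through Toll-like receptor signalling.

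The 6 genes do unrelated work. Zbtb16 encodes PLZF, a repressor with a BTB domain and zinc fingers. Hif3a encodes an alpha subunit of the hypoxia-inducible factors, some forms of which dampen the other alpha subunits. Fam107a encodes an actin-binding protein known to be induced by stress hormones, and Map7d2 a microtubule-associated protein of the family that recruits kinesin motors. Sult1a1 encodes a cytosolic sulfotransferase that conjugates phenols and drugs, and Dlk2 a membrane protein with EGF-like repeats related to Notch ligands.

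On mm10, all 6 are protein-coding in GENCODE vM21. Zbtb16 (ENSMUSG00000066687) spans chr9:48654297-48836222 on the minus strand and Fam107a (ENSMUSG00000021750) spans chr14:8296274-8318023 on the minus strand. Map7d2 (ENSMUSG00000041020) lies at chrX:159414572-159498757 on the plus strand. Hif3a (ENSMUSG00000004328) at chr7:17031507-17062427 and Sult1a1 (ENSMUSG00000030711) at chr7:126672865-126676432 are both on the minus strand, and Dlk2 (ENSMUSG00000047428) lies at chr17:46297421-46303271 on the plus strand. Exons of Sult1a1 overlap Sgf29 and exons of Dlk2 overlap Abcc10, each on the opposite strand. The libraries kept strand, and the share of these genes' reads on the other strand was 13.1% for Sult1a1, 1.49% for Dlk2 and at most 0.849% for the other 4.

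Start-site windows of RefSeq (GRCm38.p6, 250 bases before and 50 after a start) matched 5 of the 6 genes with 9 windows, and not Zbtb16. They were searched on both strands for the core palindrome ACANNNTGT and for the hexamer AGAACA, whose reverse complement is TGTTCT and which can overlap the palindrome. The palindrome lay in the windows of 2 of the genes, Fam107a and Map7d2, against 7.90% of all 27025 genes (6.85% of 32851 windows). The hexamer lay in those of 3, Fam107a, Sult1a1 and Dlk2, against 21.3% of all genes (19.0% of windows). A match is a description of the letters and not evidence of binding. For Hif3a neither set of letters is in this window.

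The first sequence is shown because it holds the palindrome and the hexamer together. It lies in an intron of Fam107a just before an internal start, at chr14:8309796-8310029 on the minus strand, with matches in capitals. The palindrome begins at position -116, counted from the start base as 0, and runs into a TGTTCT.

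Fam107a: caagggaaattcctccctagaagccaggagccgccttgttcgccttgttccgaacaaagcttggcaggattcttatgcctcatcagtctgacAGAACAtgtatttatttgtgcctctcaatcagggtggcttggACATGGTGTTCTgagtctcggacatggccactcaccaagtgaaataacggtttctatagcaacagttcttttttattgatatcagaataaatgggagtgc

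The second, for contrast, holds 2 separate hexamers and no palindrome. It precedes Sult1a1 between genes at chr7:126676433-126676668 on the minus strand, and its hexamers, in capitals, begin at positions -212 and -34.

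Sult1a1: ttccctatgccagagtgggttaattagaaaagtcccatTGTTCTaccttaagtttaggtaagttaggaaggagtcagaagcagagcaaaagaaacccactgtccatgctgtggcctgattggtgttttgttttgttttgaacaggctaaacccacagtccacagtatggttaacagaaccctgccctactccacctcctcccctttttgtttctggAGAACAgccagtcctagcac

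The Map7d2 matches fall just after an internal start, in an exon, at positions 12 and 23 of the plus strand, and are shown since they lie close together without overlapping (palindrome in capitals). They lie at chrX:159459127-159459155 and chrX:159459138-159459166. The hexamer before Dlk2 at chr17:46297273-46297298, position -200, is between genes.

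Map7d2 first match: acaggacaggACACAGTGTtcacagtctg

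Map7d2 second match: cacagtgttcACAGTCTGTggttggagag

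Dlk2 hexamer: atgggaggaaAGAACAgcgggtacgc

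Between 18.9 and 25.5 M reads were counted in each of 21 libraries, and 43.9 to 58.0 M in the other 3, with 19163 to 21362 genes having a read. The deeper ones were replicate 3 of wild-type Dex with LPS, replicate 1 of mutant vehicle and replicate 2 of mutant LPS. They held 152, 133 and 86.5 CPM of Alb, the liver albumin gene, and wild-type vehicle replicate 3, of ordinary depth, held 99.6 CPM, in a range of 0 to 152 CPM. Replicate 1 of wild-type Dex with LPS and replicate 2 of mutant Dex with LPS had the smallest shares of reads outside genes, 3.10% and 3.57%, and are left out with the deeper ones in an alternative of 5 libraries. The 12 fibroblast markers summed to 25760 to 35042 CPM, each present in every group. Several marker sums of other cell types differed with Dex in wild type. The adipocyte sum was 17.8 to 21.8 CPM in vehicle and 32.0 to 36.2 CPM in Dex, carried by Fabp4, while Lep and Cfd were at 0 in both. The neuron and glia sum was 79.1 to 86.5 CPM in vehicle and 116 to 120 CPM in Dex, carried by Tubb3 and Map2, with Rbfox3 at 0 in Dex. Endothelium markers went from 27.2 to 28.6 CPM in vehicle to 33.0 to 36.4 CPM in Dex, with Tie1 at 0 in both, and skeletal muscle markers from 81.2 to 97.3 CPM to 98.5 to 109 CPM, with Ckm at 0 in both. Hepatocyte markers were lower with Dex, at 67.4 to 142 CPM in vehicle and 21.5 to 24.5 CPM in Dex. Under LPS they were not lower with Dex, at 0.761 to 28.1 CPM without it and 1.02 to 201 CPM with it. Leukocyte markers summed to 56.0 to 73.7 CPM in wild type and 142 to 181 CPM in the mutant, with Cd3e at 0. Epithelium markers were lower with Dex in wild type (10.6 to 12.2 CPM in vehicle and 7.19 to 9.29 CPM in Dex), with Krt5 and Krt14 at 0. Under LPS the adipocyte sum was 14.9 to 17.4 CPM without Dex and 39.1 to 43.2 CPM with it, and the neuron and glia sum 66.7 to 67.9 and 93.9 to 112 CPM. Under Dex with LPS the genotypes differed widely in skeletal muscle markers (99.3 to 136 CPM in wild type and 30.5 to 37.2 CPM in the mutant) and endothelium markers (22.3 to 26.6 and 7.97 to 9.95 CPM). The part of these markers in the results that follow was not tested. The transcript of the receptor itself, Nr3c1, stood at 89.7 ± 2.94 CPM (SD, n = 3) in wild-type vehicle and 86.4 ± 1.11 CPM in mutant vehicle, and read counts cannot check a point mutation.

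**Figure D1:**
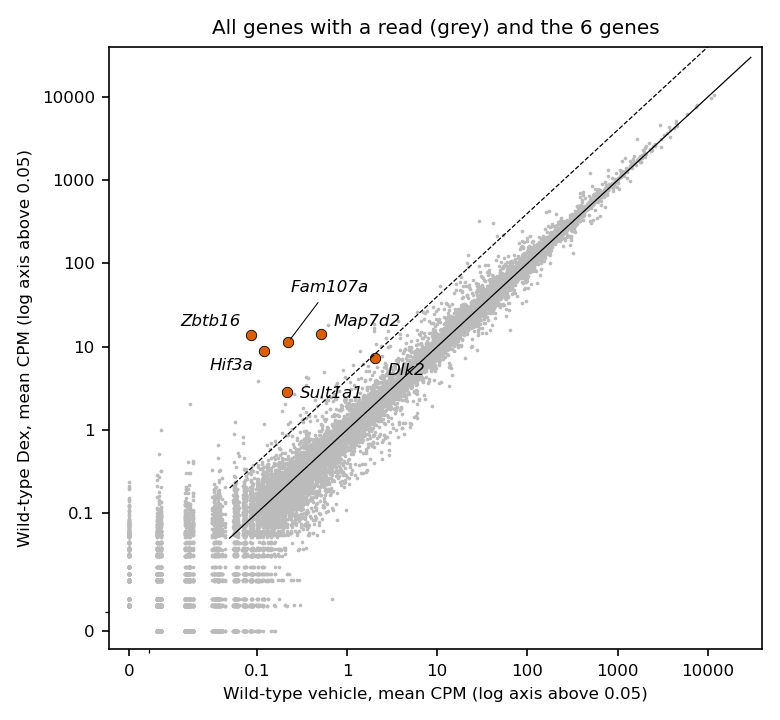
Mean CPM of every gene with a read in wild-type vehicle (x axis) and wild-type Dex (y axis), both logarithmic above 0.05 CPM, with the 6 genes in orange, a solid line of equal level and a dashed line 4 times higher. Of the 6, Dlk2 alone lies below the dashed line, and Zbtb16 lies farthest above it.

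Levels are given as CPM scaled by TMM, per library in the order of replicates 1 to 3. A pooled ratio is the reads of one group over those of another per scaled library size, with an exact 95% interval that covers counting error only. In bulk RNA, fewer cells that express a gene and less RNA per cell cannot be told apart. A group without reads has a floor of 3 reads, which is 0.0296 to 0.0509 CPM.

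Zbtb16 went from a handful of reads to the largest fitted fold of all genes tested. In wild type it had 1, 2 and 3 reads in vehicle (0.0475, 0.0873 and 0.124 CPM) and 361, 347 and 256 reads in Dex (14.5, 14.3 and 13.1 CPM). The pooled ratio was 160 (95% interval 73.1 to 436). With LPS alone no library had a read. With Dex and LPS there were 127, 156 and 469 reads (5.64, 6.98 and 8.31 CPM), at least 158-fold above LPS alone. In the mutant the reads stayed in single digits throughout: 5, 7 and 3 in vehicle, 4, 1 and 1 in Dex, 2, 2 and 0 in LPS, and 0, 2 and 0 in Dex with LPS. Both wild-type Dex groups lay above all other libraries, and none of the remaining groups was set apart from its neighbour in the order of levels.

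Hif3a showed the same kind of step from a few reads. Wild-type vehicle held 5, 1 and 2 reads (0.237, 0.0436 and 0.0827 CPM) and Dex 215, 204 and 188 (8.64, 8.42 and 9.63 CPM), a ratio of 75.4 (38.0 to 175). LPS alone held 2, 2 and 6 reads, and Dex with LPS 70, 111 and 292 (3.11, 4.97 and 5.17 CPM), a ratio of 29.8 (16.0 to 62.5). Mutant libraries held 0 to 4 reads each, at most 0.197 CPM. Wild-type Dex and Dex with LPS were the only groups separated from the next in rank.

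Fam107a, which has the palindrome in its internal start window printed above, differed from both factors by also being higher with LPS. Its wild-type vehicle libraries held 5, 8 and 2 reads (0.237, 0.349 and 0.0827 CPM), and its Dex libraries 298, 266 and 217 (11.97, 10.98 and 11.12 CPM). The ratio was 51.7 (31.2 to 92.9). LPS alone gave 30, 28 and 24 reads (1.37, 1.19 and 1.30 CPM), above every vehicle library, and Dex with LPS gave 9.16, 8.82 and 9.26 CPM. In the mutant 1 read was seen in each vehicle library and none in any Dex library. Mutant LPS libraries held 9, 18 and 6 reads (0.365, 0.425 and 0.311 CPM), and those with Dex and LPS 8, 11 and 9 (0.410, 0.576 and 0.443 CPM). These 2 mutant LPS groups overlapped, and both lay above mutant vehicle and below wild-type LPS.

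Map7d2 had a small number of reads in every library before Dex. Its levels were 0.617, 0.655 and 0.289 CPM in wild-type vehicle and 14.3, 13.8 and 14.3 CPM in Dex, from 35 and 968 reads, a ratio of 27.5 (19.6 to 39.7). Levels in LPS were 0.411, 0.853 and 0.652 CPM and overlapped vehicle. Dex with LPS gave 9.82, 10.7 and 11.5 CPM, a ratio of 16.99 (12.4 to 23.8) over LPS. The mutant kept the low level: 0.494, 0.333 and 0.591 CPM in vehicle, 0.393, 0.421 and 0.300 CPM in Dex, 0.243, 0.189 and 0.207 CPM in LPS, and 0.359, 0.472 and 0.246 CPM in Dex with LPS.

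Sult1a1 reached the lowest CPM of the 6 with Dex, although its short exons, 1.51 kb in all, put it above Hif3a per length. Wild-type vehicle held 2, 7 and 6 reads (0.0949, 0.305 and 0.248 CPM) and Dex 68, 69 and 59 (2.73, 2.85 and 3.02 CPM), a ratio of 13.0 (7.68 to 23.6). LPS alone held 5, 0 and 0 reads and Dex with LPS 2.76, 2.33 and 2.67 CPM, a ratio of 33.4 (14.1 to 104). The mutant libraries did not follow treatment: vehicle held 34, 2 and 0 reads, Dex 3, 0 and 2, LPS 1, 16 and 3, and Dex with LPS 1, 0 and 2. The libraries with 34 and 16 reads (0.5998 and 0.378 CPM) are the deeper mutant libraries named above, with 133 and 86.5 CPM of Alb. The part of liver RNA, of depth or of whatever sets their library numbers apart was not tested.

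Dlk2 started from a clear level and had the smallest fold of the 6, rank 73 of the 15221 tested genes by wild-type Dex fold. It had 1.66, 2.18 and 2.31 CPM in wild-type vehicle and 7.79, 7.35 and 6.76 CPM in Dex, a ratio of 3.55 (2.94 to 4.31). LPS alone gave 1.00, 0.597 and 0.652 CPM, below every vehicle library. Dex with LPS gave 7.11, 5.86 and 4.002 CPM, overlapping Dex alone, and the lowest of these was the deeper library. Mutant levels ran from 1.62 to 2.91 CPM in vehicle, 1.90 to 2.87 in Dex, 1.35 to 1.90 in LPS and 1.18 to 1.57 in Dex with LPS.

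**Figure D2:**
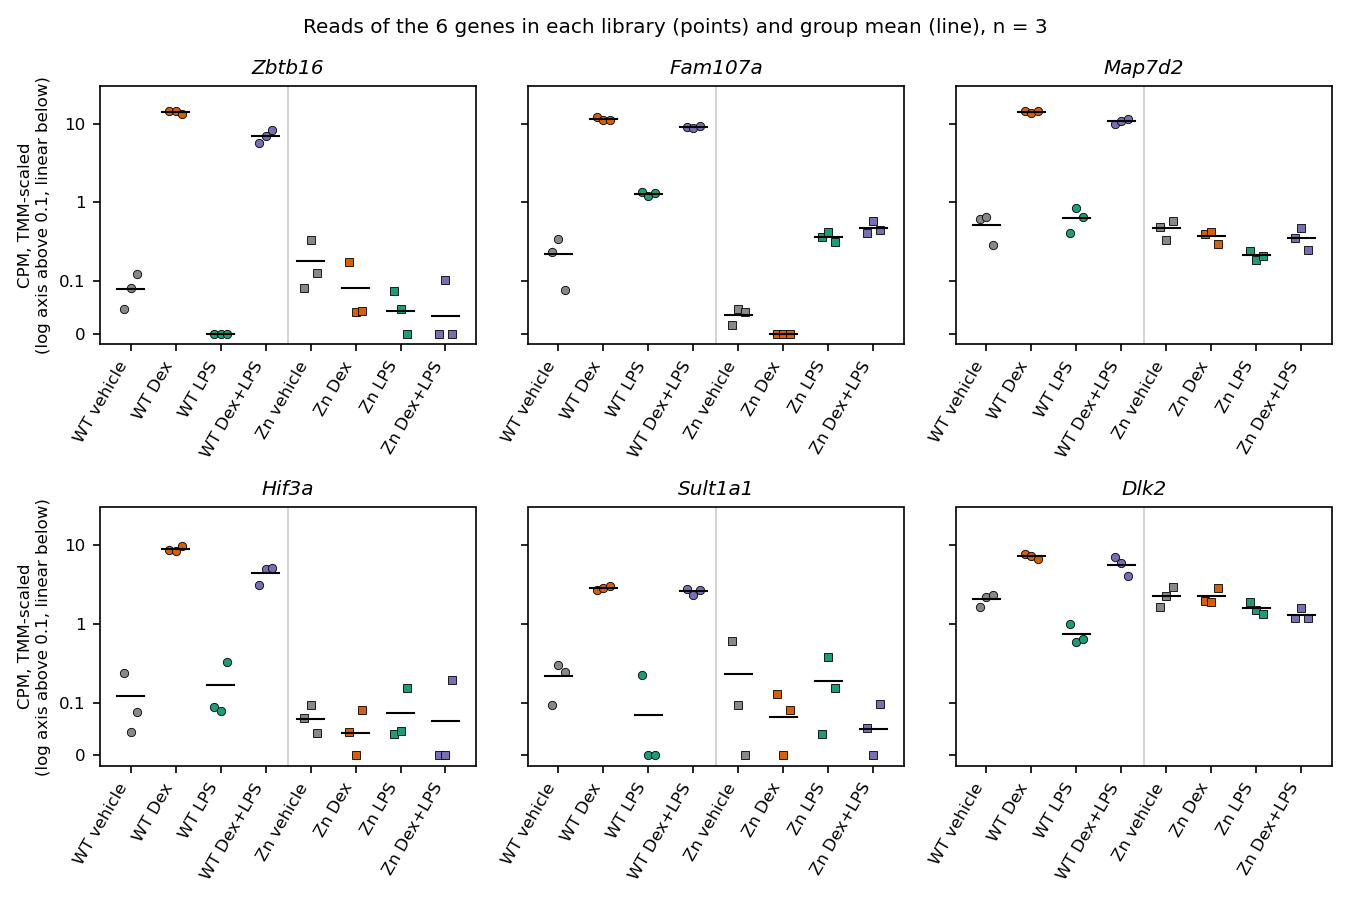
CPM of each of the 6 genes (y axis, logarithmic above 0.1 CPM and linear below) in the 8 groups (x axis), with a point for each library (circles wild type, squares mutant) and a line at the group mean of 3 libraries. In every panel both wild-type Dex groups lie above the other 6 groups.

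Per kb of exon, so that the genes can be set side by side, mean levels in wild-type Dex were 3.46 CPM for Dlk2, 3.42 for Map7d2, 2.93 for Fam107a, 2.65 for Zbtb16, 1.90 for Sult1a1 and 1.33 for Hif3a. In vehicle on the same scale they were 0.971, 0.126, 0.0576, 0.0163, 0.143 and 0.0181 in that order. The genes lay in a narrower band per length with Dex than without it, where Zbtb16 and Hif3a were lowest. The fitted log2 fold changes in this contrast, which picked the genes, were 6.41 for Zbtb16 (rank 1 of 15221), 5.52 for Hif3a (rank 2), 5.26 for Fam107a (rank 3), 4.58 for Map7d2 (rank 5), 3.31 for Sult1a1 (rank 11) and 1.79 for Dlk2. Their median was 4.92, against 0.000161 over all genes tested.

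Under LPS, in libraries that did not serve to pick the genes, Dex raised all 6 in wild type. Of all genes tested 10.5% were called higher in this comparison and 21.0% in either direction (edgeR quasi-likelihood test, Benjamini-Hochberg adjusted p below 0.05). The log2 fold change was 6.52 ± 0.38 (SE) for Zbtb16 (adjusted p = 6.31e-11), 4.26 ± 0.39 for Hif3a (adjusted p = 1.96e-08) and 4.10 ± 0.65 for Sult1a1 (adjusted p = 6.26e-05). It was 3.90 ± 0.19 for Map7d2 (adjusted p = 6.67e-13), 2.76 ± 0.26 for Dlk2 (adjusted p = 2.98e-08) and 2.75 ± 0.16 for Fam107a (adjusted p = 4.51e-11). The median over the 6 was 4.0, against 0.01 over all genes tested. In each gene the 3 Dex with LPS libraries lay above the 3 LPS libraries, a separation that was not counted over all genes. Without the 3 deeper libraries the 6 log2 fold changes were 6.14 for Zbtb16, 4.06 for Hif3a, 3.96 for Sult1a1, 3.82 for Map7d2, 2.96 for Dlk2 and 2.72 for Fam107a, all still called. The value for Zbtb16 has no reads behind its LPS side and depends on the prior count. At few reads the prior count also pulls other fitted values toward 0. For Sult1a1, with 5 reads in LPS, the fitted fold was 17.1 and the pooled ratio 33.4. In the authors' deposited table for this comparison the log2 fold changes were 9.66 for Zbtb16, 4.82 for Hif3a, 4.06 for Map7d2, 2.996 for Dlk2 and 2.79 for Fam107a, and Sult1a1 had no row.

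Over Dex alone, Dex with LPS gave pooled ratios of 0.529 for Zbtb16, 0.528 for Hif3a, 0.695 for Dlk2, 0.775 for Map7d2, 0.803 for Fam107a and 0.916 for Sult1a1 in wild type. The groups did not overlap for Zbtb16, Hif3a, Map7d2 and Fam107a, and did for Dlk2 and Sult1a1. How many of all genes tested were set apart in this way was not counted. These ratios hold the Dex group that picked the genes and carry no test.

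In the mutant, Dex alone gave no call among the 6, nor among all 15221 genes (0% called). The smallest adjusted p over all genes was 0.140, 1109 genes had an unadjusted p below 0.05, and DESeq2 called 3 genes. Pooled ratios of Dex over vehicle were 1.09 (0.880 to 1.35) for Dlk2, 0.770 (0.459 to 1.26) for Map7d2 and 0.580 (0.184 to 1.58) for Zbtb16, and 0.622 (0.104 to 2.72) for Hif3a from 3 and 7 reads. These intervals do not show that the level was the same with and without Dex. For Sult1a1 the log2 fold change was -1.36 ± 0.67 (adjusted p = 0.675), and it was 0.28 without mutant vehicle replicate 1, the library with 34 reads. Fam107a had 3 reads against 0, too few for a ratio.

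Dex under LPS gave no call among the 6 in the mutant either, where 0.00657% of all genes, 1 gene, was called, 889 had an unadjusted p below 0.05, and DESeq2 called 28 genes. Pooled ratios were 1.24 (0.724 to 2.12) for Fam107a, 1.71 (0.867 to 3.40) for Map7d2, 0.823 (0.614 to 1.10) for Dlk2 and 0.977 (0.203 to 4.12) for Hif3a. For Zbtb16 the ratio was 0.732 (0.0663 to 5.11) and for Sult1a1 0.220 (0.0418 to 0.741), each with 3 reads or fewer in Dex with LPS. The fitted log2 fold change of Sult1a1 was -1.21 ± 0.74 (adjusted p = 0.909) and moved to -0.36 without the 3 deeper libraries. The medians of the 6 log2 fold changes were -0.39 for Dex alone and -0.09 under LPS.

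The Dex response under LPS differed between the genotypes in all 6 genes by a test of the difference itself, lower in the mutant, a direction in which 5.03% of all genes tested were called. The log2 difference was -6.67 ± 1.18 for Zbtb16 (adjusted p = 0.000499), -5.30 ± 1.11 for Sult1a1 (adjusted p = 0.0022) and -4.29 ± 1.11 for Hif3a (adjusted p = 0.0125). It was -3.30 ± 0.47 for Map7d2 (adjusted p = 2.31e-05), -3.03 ± 0.38 for Dlk2 (adjusted p = 3.87e-06) and -2.47 ± 0.32 for Fam107a (adjusted p = 1.44e-05). For Hif3a the call was lost without mutant LPS replicate 3 (adjusted p = 0.103) and with only the compared libraries (adjusted p = 0.0593), and for Sult1a1 without mutant LPS replicate 2 (adjusted p = 0.118), the library with 16 of its reads. Without the 3 deeper libraries all 6 were called.

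**Figure D3:**
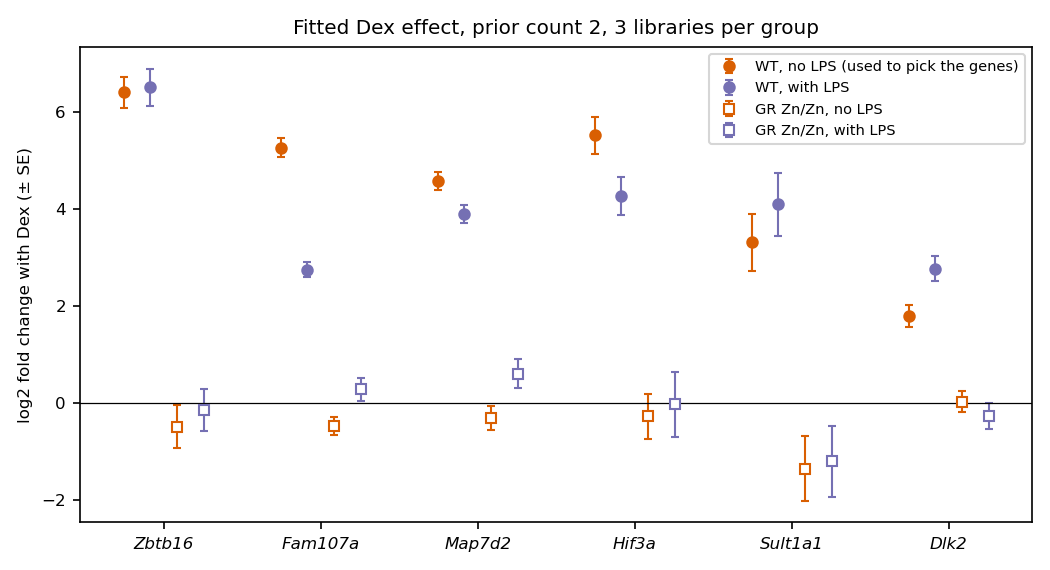
Fitted log2 fold change with Dex (y axis, ± SE, 3 libraries per group) of the 6 genes (x axis) in wild type (filled circles) and mutant (open squares), without LPS (orange) and with LPS (purple). All wild-type values lie above 1.5 and all mutant values below 1, and the wild-type values without LPS come from the contrast that picked the genes. The SE is approximate and can be too small at few reads, as for Fam107a in the mutant without LPS (-0.47 ± 0.18, from 0 and 3 reads).

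With both Dex and LPS the 6 genes were all lower in the mutant than in wild type, where 16.8% of all genes tested were called lower. Wild type over mutant, the pooled ratio was 219 (60.3 to 1809) for Zbtb16, with 2 reads in the mutant, and 68.8 (26.7 to 253) for Hif3a. It was 51.4 (17.4 to 251) for Sult1a1, with 3 reads in the mutant, 30.7 (20.0 to 49.7) for Map7d2, 19.2 (13.2 to 29.1) for Fam107a and 3.90 (3.07 to 5.03) for Dlk2. Adjusted p-values ran from 5.70e-14 for Map7d2 to 2.44e-05 for Sult1a1.

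With LPS alone 3 of the 6 differed between the genotypes, where 24.5% of all genes tested did. Fam107a was lower in the mutant, by a log2 difference of -1.58 ± 0.21 (adjusted p = 6.99e-06), and so was Map7d2, by -1.33 ± 0.27 (adjusted p = 0.000881). With only the compared libraries Map7d2 did not pass the filter on low counts, which it passes over all 24 libraries. Dlk2 was higher in the mutant, by 1.01 ± 0.28 (adjusted p = 0.011), a call that was lost without wild-type LPS replicate 2 (adjusted p = 0.0671). In vehicle, the group that picked the genes, Dlk2 stood at 2.05 ± 0.35 CPM in wild type and 2.27 ± 0.64 CPM in the mutant, and Map7d2 at 0.520 ± 0.201 and 0.472 ± 0.130 CPM. Fam107a was 7.44 (2.10 to 40.1) times higher in wild-type vehicle, from 15 and 3 reads.

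With LPS in the mutant 2 of the 6 were called, Fam107a higher and Map7d2 lower, a share near the 36.7% of all genes tested. With only the compared libraries 5 of the 6, these both included, did not pass the filter on low counts. Over all 24 libraries Zbtb16, Hif3a and Sult1a1 pass it through the wild-type Dex groups. Fam107a and Map7d2 pass it there through libraries without Dex as well. Fam107a went from 3 to 33 reads, a ratio of 12.9 (4.06 to 65.9). Its log2 fold change was 2.08 ± 0.26 (adjusted p = 1.88e-06), and 1.67 to 3.67 over 14 alternatives. Its wild-type libraries went from 15 to 82 reads, a ratio of 5.85 (3.35 to 10.9), with no test since vehicle picked the genes. Map7d2 fell by 0.96 on the log2 scale (SE 0.26, adjusted p = 0.00612), and the call was lost without the 3 deeper libraries (adjusted p = 0.130) and without mutant LPS replicate 2 (adjusted p = 0.0545). Without mutant vehicle replicate 1 the calls came to 4 of the 6 genes. Fam107a thus had the only called rise with LPS among the 6 in the mutant, and Dex added to LPS left it uncalled there.

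Relatives of the 6 genes, listed by family or pathway, mostly did not follow them. Of 36 listed, 28 were tested: 4 rose and 6 fell with Dex in wild type, where 13.2% of all genes tested were called. With Dex under LPS 2 rose and 6 fell, where 21.0% of all genes were called. None was called in the mutant, where Dex called 0% of all genes without LPS and 0.00657% with it. Their median log2 fold change with Dex was 0.06 in wild type. The relatives Fam107b, Map7d1, Bcl6 and Dlk1 were not called, and Zbtb32, a relative of Zbtb16, averaged at most 0.0958 CPM in any group and was not tested. Fam107b had 53.2 ± 1.19 CPM in vehicle and 57.2 ± 1.42 CPM in Dex, and Dlk1 59.96 ± 1.49 and 55.1 ± 2.60 CPM.

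Of the 7 hypoxia-pathway relatives of Hif3a, 3 rose and 1 fell with Dex, and 1 rose and 2 fell under LPS. Epas1, the HIF-2 alpha subunit, rose by 1.34 ± 0.11 (log2, adjusted p = 5.28e-09) with Dex, from 12.9 ± 0.26 to 32.7 ± 0.82 CPM, and by 0.70 ± 0.10 under LPS (adjusted p = 1.81e-05). Hif1a, the main hypoxia-responsive subunit, rose by 0.36 ± 0.11 (adjusted p = 0.0245) with Dex and was not called under LPS (0.15 ± 0.10). The hydroxylase gene Egln3 rose by 0.26 with Dex and fell by 0.44 under LPS, and the partner gene Arnt2 fell by 0.22 and by 0.33.

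Among Notch pathway genes listed with Dlk2, target genes fell. Heyl, a Notch-responsive repressor, fell by 1.72 (log2, SE 0.16, adjusted p = 2.64e-08) with Dex, from 4.19 ± 0.41 to 1.22 ± 0.23 CPM, and by 1.49 under LPS (adjusted p = 1.10e-06). Hes1 fell by 0.39 and 0.41, and Hey1 fell by 0.55 with Dex and was not called under LPS (-0.19). The receptor gene Notch1 fell by 0.58 under LPS and Notch3 rose by 0.36 there. The median over the 7 genes was -0.29 in both comparisons.

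For the other families, Bcl6b fell by 1.03 with Dex and 0.98 under LPS, and Zbtb7c rose by 0.83 with Dex alone. Map7, which encodes the founding member of the Map7d2 family, fell by 0.82 with Dex, from 1.15 ± 0.04 to 0.615 ± 0.045 CPM, and was not called under LPS (-0.65). Of the 10 sulfotransferase and sulfate-donor genes 3 were tested and none was called; Papss2, which makes the sulfate donor, had 63.8 ± 0.99 and 71.6 ± 1.34 CPM.

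**Figure D4:**
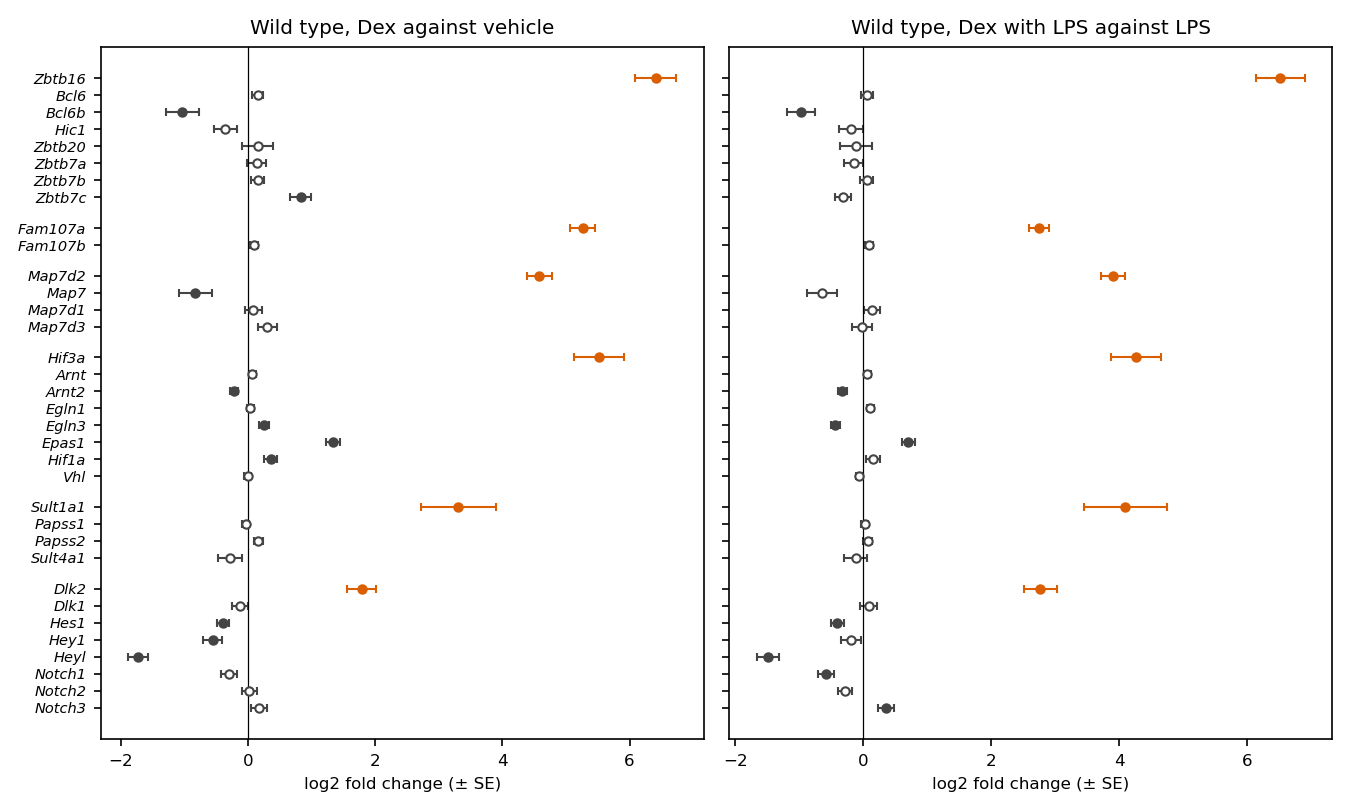
Log2 fold change with Dex (x axis, ± SE) in wild type without LPS (left) and with LPS (right) for the 6 genes (orange) and their 28 tested relatives (grey, filled where called), ordered by family. Relatives lie between -2 and 1.5, and all but Dlk2 of the orange points lie above 2.5 in both panels.

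As a reference, 17 of 19 textbook glucocorticoid targets rose and 1 fell with Dex in wild type (median log2 fold change 1.48). Under LPS 14 rose and 1 fell (median 1.51), and none was called in the mutant (medians 0.06 and 0.00). Of all genes tested, 13.2% and 21.0% were called in these wild-type comparisons, and 0% and 0.00657% in the mutant.

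The profile of the 6 genes over the 24 libraries was most like that of Fkbp5, a chaperone gene of the receptor complex, with Pearson r = 0.992 between its log2 level and the mean profile of the 6. Glul, the glutamine synthetase gene (r = 0.982), Gm807 (r = 0.982), Lyve1, a hyaluronan receptor gene (r = 0.981), and Ankrd40 (r = 0.980) followed. Fkbp5 had 41.3 ± 1.40 CPM in wild-type vehicle, 307 ± 13.2 in Dex, 37.7 ± 2.72 in LPS and 243 ± 9.002 in Dex with LPS, and 41.8 to 44.8 CPM on average in the 4 mutant groups. Singly, Zbtb16 was most like Fkbp5 (r = 0.983), Hif3a (r = 0.976) and Map7d2 (r = 0.976) most like Glul, Fam107a most like Lap3 (r = 0.974), Dlk2 most like Hdac7 (r = 0.960) and Sult1a1 most like Aldh1a1 (r = 0.946). Between the 6 genes r ran from 0.542 to 0.953 with a median of 0.872. All these values share libraries and the 2 high groups, and are descriptions.

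A wider group met a stated form of the rule: below 0.5 CPM in wild-type vehicle, and at least 4 times higher and at 0.5 CPM or more in Dex. Of 13281 genes below that vehicle level 38 met it, among them Zbtb16, Fam107a, Hif3a and Sult1a1. The other 34 reached at most 4.30 CPM in Dex, so that Zbtb16, Fam107a and Hif3a stood highest. The highest of the 34 were Ppl (4.30 CPM), Ibsp (4.26), Lyve1 (3.88), Ablim3 (3.46), Scel (2.73), Ms4a6c (2.29), Fhl5 (2.06), Slc10a6 (2.04), Mchr1 (1.93) and Ms4a6b (1.81). Under LPS, 32 of the 34 were called higher with Dex, where 10.5% of all genes tested were. All 34 passed the filter on low counts, to which their Dex level, part of the rule, contributes. Ibsp (log2 -3.01, adjusted p = 0.150) and Slitrk4 (1.02, adjusted p = 0.115, named after its value was seen) were not called. Not every gene of this kind was low in the mutant: Ppl averaged 0.348 CPM in wild-type vehicle and 1.65 CPM in mutant vehicle.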

How the data were processed

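RNA-seq counts per gene from 24 libraries, 3 in each of 8 groups taken from the sample titles, were analysed. The authors' deposited read counts come from STAR, in unstranded and stranded columns; the genome mm10 and the tools DESeq, DESeq2, FastQC and STAR (2.4.2a, 2.4.2) are named per the submitters' processing notes. The column matching the stranded kit was used. Rows without a gene name were kept out of library sizes (3.10 to 4.72% of reads in no feature, 3.74 to 5.79% mapping to several places, 2.92 to 5.58% unmapped, 1.18 to 1.41% ambiguous). The authors' deposited tables give log2 fold changes and adjusted p-values for 4 comparisons, quoted only where named, while 96 other columns with per-sample values stayed unused. Positions and exon lengths came from GENCODE vM21.

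edgeR 4.0.16 in R 4.3.3 was run with TMM scaling, its default filter by group (15221 of 27088 genes kept), 1 coefficient per group over all 24 libraries, robust quasi-likelihood tests, a prior count of 2 and Benjamini-Hochberg adjustment over all genes tested, with a call at an adjusted p below 0.05. The SE of a log2 fold change was taken from the F statistic and is approximate. It scales with the fitted value, which the prior count pulls toward 0, so at few reads it can be too small. Ratios pool the reads of a group. Intervals are exact Clopper-Pearson at 95%, and a group at 0 reads was set to 3 reads over the group. No molecular identifiers were used, so intervals cover counting error only. The fit was checked on simulated counts. Alternatives were RLE factors, a prior count of 0.5, no filter, unstranded counts, only the compared libraries, a replicate block, DESeq2 1.42.0, leaving out each replicate, the 3 deeper libraries, or these and the 2 with the fewest reads outside genes (5 libraries that stand apart).

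The members, lists and tests were chosen with earlier results of these data known. Contrasts that hold wild-type vehicle or wild-type Dex were described without a test for the 6 genes. Other genes were named by rule: relatives called or 1 set relative per member, the 5 genes most like the mean profile and 1 per member, and at most 10 further near-silent genes by Dex level. Marker lists covered fibroblasts, leukocytes, endothelium, epithelium, skeletal muscle, hepatocytes, neurons and glia, and adipocytes.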

Additional observations from a re-analysis of the deposited data

Results flagged for a closer look

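The Dex response under LPS differed between wild type and mutant in each of the 6 genes by the test of the difference itself (edgeR quasi-likelihood test, 3 libraries per group). Of all genes tested 5.03% were called in this direction, lower in the mutant. Over 21 alternatives the call was lost in 2 for Hif3a and in 1 for Sult1a1. The log2 difference, mutant minus wild type, was -6.67 for Zbtb16, -2.47 for Fam107a, -3.30 for Map7d2, -4.29 for Hif3a, -5.30 for Sult1a1 and -3.03 for Dlk2. In each gene the 3 wild-type libraries with Dex and LPS lay above the 3 with LPS alone, a separation that was not counted over all genes. In the mutant the corresponding libraries overlapped for every gene but Map7d2, which had 18 reads in LPS and 21 in Dex with LPS.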

How the results depend on the processing

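In all 15 alternatives Dex under LPS raised 6 of the 6 genes in wild type, and Dex gave no call among them in the mutant with or without LPS. With only the compared libraries 1 of the 6 passed the filter in each mutant comparison. The genotype difference of the Dex response held for 5 or 6 genes. The number of the 6 genes called with LPS in the mutant was 2; it was 0 with only the compared libraries, where fewer genes were tested, 1 without the 3 deeper libraries, and 1 to 4 when a replicate was left out (1 without mutant LPS replicate 2 and 4 without mutant vehicle replicate 1). The Dex fold change of Sult1a1 in the mutant, -1.36 on the log2 scale and not called, reversed to 0.26 without the 3 deeper libraries and to 0.26 without the 5 libraries that stand apart, and ran from -1.74 to 0.28 with 1 replicate left out. Of 406 values for single genes 396 kept direction and call, 7 lost the call and 3 reversed. Settings in which a gene did not pass the filter gave no value and are not among the 406. Over all genes, Dex under LPS in wild type called 3198 genes, 1544 with only the compared libraries and 5052 without the 3 deeper ones. In the mutant it called 1 gene, 0 to 160 in the alternatives, with 160 without the 5 libraries, 28 by DESeq2, 12 with the replicate block and 27 without mutant Dex with LPS replicate 2. Dex alone in the mutant called 0 to 5. The genotype difference called 1581 genes, 1042 with only the compared libraries and 2971 without the 5. The genotypes under Dex with LPS differed in 4832 genes, 2492 with only the compared libraries. The cause of these differences was not tested. Replicate numbers gave no sign of pairing, though these correlations cannot show that the samples were unpaired. Over 84 same-numbered pairs the correlation of deviations had a median of 0.00 and exceeded 0.1 in 17. It exceeded 0.1 in 39 of 168 different-numbered pairs, and 5 of the 24 libraries correlated best with their own number. With the replicate block the number of the 6 genes called was 6 for Dex under LPS in wild type, 0 and 0 in the mutant, 6 for the genotype difference, 2 for LPS in the mutant, and 3 and 6 for the genotypes under LPS and under Dex with LPS, as without it. At 0 to 3 reads in a group, counting limits what can be told: a library at 0 reads allows up to 0.0529 to 0.163 CPM on the TMM scale.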
